A study of Homo sapiens with 6 samples.

Results

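The YAP and TEAD genes described here were 10 genes fixed by name: the coactivator genes YAP1 and WWTR1, the transcription factor genes TEAD1 and TEAD4, and the target genes ANKRD1, CCN2 (older symbol CTGF), CCN1 (older symbol CYR61), AMOTL2, CRIM1 and AJUBA. All 10 were found among the 59050 gene symbols of the count files, and all 10 passed the filter on low counts. RNA-seq libraries were made from H2122, a human lung cancer cell line grown in culture, with 3 libraries of a SMARCA4 knockout (genotype label SMARCA4 KO) and 3 of the parental line (genotype label WT), all treated with vehicle. SMARCA4 encodes BRG1, a motor subunit of SWI/SNF complexes, which move nucleosomes, and the comparison bears on how the YAP and TEAD genes stand in cells without it. The titles carry a number that is 1 for all 3 knockout libraries and 1, 3 and 6 for parental libraries; its meaning is not stated, so whether the knockout is 1 clone cannot be told. Nothing in the labels says that replicates came from separate cultures, and p-values therefore cover no more than sample-to-sample spread, possibly technical.

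YAP1 and its paralog TAZ, the product of WWTR1, are transcriptional coactivators that do not bind DNA themselves. In the Hippo cascade MST kinases activate LATS kinases, which phosphorylate the coactivators and hold them in the cytoplasm. When the kinases are inactive they enter the nucleus and bind TEAD factors, which recognise the letters GGAATG and switch on genes for growth, matrix and cytoskeleton. In cultured epithelial cells the pathway is known to respond to cell density, attachment and stiffness.

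The letters GGAATG are shown first for ANKRD1 and CCN2, the called target genes with the largest folds among the 10, in the 250 bases upstream of the RefSeq start (GRCh38.p14). Capitals mark GGAATG or its reverse complement CATTCC, and in ANKRD1 also TGANTCA, the letters read by AP-1 factors. The ANKRD1 window lies at chr10:90921088-90921337 and that of CCN2 at chr6:131951373-131951622, both on the minus strand and printed 5′ to 3′. GENCODE 29 places the ANKRD1 start further upstream, at 90921276, inside this window.
ANKRD1: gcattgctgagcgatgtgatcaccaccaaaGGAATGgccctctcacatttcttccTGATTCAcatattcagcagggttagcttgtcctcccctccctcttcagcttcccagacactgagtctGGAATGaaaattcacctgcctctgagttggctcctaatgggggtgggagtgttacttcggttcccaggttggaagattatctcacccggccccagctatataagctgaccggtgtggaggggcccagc
CCN2: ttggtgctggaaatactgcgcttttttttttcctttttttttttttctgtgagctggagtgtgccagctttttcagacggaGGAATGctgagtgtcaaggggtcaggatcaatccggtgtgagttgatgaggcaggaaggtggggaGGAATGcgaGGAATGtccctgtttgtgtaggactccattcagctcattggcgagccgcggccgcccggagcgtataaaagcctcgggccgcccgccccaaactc
ANKRD1 held GGAATG at 220 and 128 bases before the start and TGANTCA at 195 bases. CCN2 held GGAATG at 169, 104 and 95 bases and no TGANTCA in this window. The RefSeq table gave 9 upstream windows for 6 of the 10 genes and none for CCN1, CRIM1, TEAD1 and TEAD4. Both strands were searched, and no GGAATG match overlapped a TGANTCA match. GGAATG was present in 5 of these 9 windows (YAP1, ANKRD1, CCN2, and 1 of 2 windows each of AMOTL2 and AJUBA), or 55.6%, and in 11.9% of 35116 windows of the same length over all genes. TGANTCA was present in 1 of the 9 windows and in 6.57% of all windows. These matches are letters only and do not show that a factor is bound. The target genes were chosen as known targets, so the higher share is not independent evidence.

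Gene reads per library ran from 55120937 to 59917980, so that 3 reads equal 0.0501 to 0.0544 CPM, the read count scaled to the library total. SMARCA4 had 20.7, 19.3 and 24.9 CPM in the knockout libraries, against 232, 214 and 335 CPM in the parental libraries. On the first principal component (76.5% of the variance) the knockout libraries scored -85.48, -85.35 and -85.45, and the parental libraries 82.38, 81.75 and 92.15. On the second (19.0%) parental replicate 3 scored 83.4 and the other 5 libraries -46.1 to 4.69. Counts of called genes in the lists below, other than marker lists, are given with and without parental replicate 3. The same holds for the value of each gene described in the text whose call or sign it changes. Over genes with at least 50 reads in a pair of libraries, the mean chi-square between the counts of parental replicates 3 and 1 was 471. Between parental replicates 2 and 1 it was 10.3, where sampling alone gives 1. Between the knockout libraries and parental replicate 1 it was 395 to 415, and between them and parental replicate 3 it was 630 to 641. By this measure on raw counts, parental replicate 3 lay further from parental replicate 1 than the knockout libraries did. On the first principal component it lay with the other parental libraries. Of 17809 genes tested with edgeR's quasi-likelihood test, 27.6% changed at an adjusted p under 0.05, 13.3% rising and 14.3% falling in the knockout; without parental replicate 3 these shares were 61.6%, 30.8% and 30.8% of 18372 genes. Leaving out any 1 of the knockout libraries brought the genes called to between 2692 and 2785, against 4912 with all 6 libraries. Levels are CPM after TMM scaling, and changes are log2 fold changes of the knockout over the parental libraries with their standard error (SE). RNA was measured in bulk, so fewer cells of a type and less RNA per cell cannot be told apart.

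Of the 10 genes, 5 rose (TEAD1, ANKRD1, CCN2, AMOTL2 and CRIM1), none fell and 5 did not pass by edgeR's quasi-likelihood test, beside 13.3% of all genes tested that rose. For 7 of the 10 every library of 1 group lay beyond every library of the other, beside 49.8% of all genes tested. The median log2 fold change of the 10 was 1.12, beside 0.02 over all genes. Without parental replicate 3, 8 rose, AJUBA fell and YAP1 did not pass, with a median of 0.82, where 61.6% of all genes were called. Without any 1 of the knockout libraries, only 3 of the 10 passed, beside 2692 to 2785 of 18313 to 18442 genes tested. The genes were chosen with earlier results of these data known, so these counts describe them and are not independent evidence.

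**Figure D1:**
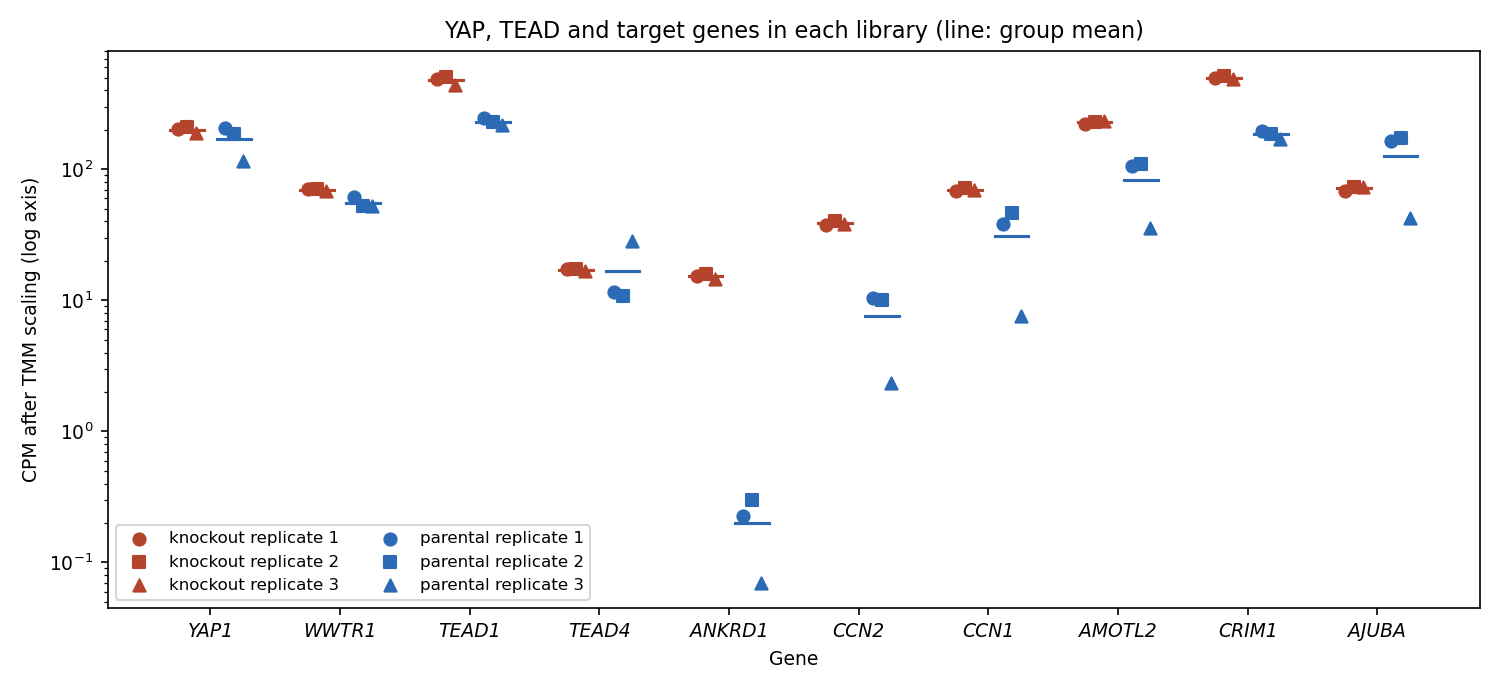
Level of each of the 10 genes in each library, in CPM after TMM scaling on a log axis; points are libraries, shapes are replicate numbers and lines are group means. The knockout libraries lie close together for every gene, and parental replicate 3 is the lowest library for YAP1, WWTR1, TEAD1, ANKRD1, CCN2, CCN1, AMOTL2, CRIM1 and AJUBA and the highest for TEAD4.

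Neither coactivator gene passed the test. YAP1 (chromosome 11, 102110461 to 102233423, GRCh38) had 203, 209 and 189 CPM in the knockout libraries, against 208, 184 and 115 CPM in the parental libraries. The groups overlapped, and parental replicate 3 was the low library. The log2 fold change of YAP1 was 0.25 (SE 0.22, edgeR adjusted p = 0.460), with a 95% interval of -0.29 to 0.79, and -0.01 (SE 0.05, adjusted p = 0.832) without parental replicate 3. WWTR1 (chromosome 3, 149517235 to 149736714) had 70.5, 70.4 and 68.2 CPM in the knockout libraries, against 61.9, 52.2 and 52.0 CPM in the parental libraries. All knockout libraries were above all parental ones, but the change of 0.33 did not pass (SE 0.11, 95% interval 0.08 to 0.59, edgeR adjusted p = 0.0621). It passed with upper-quartile factors (0.0465), with a filter of at least 1 CPM in 3 libraries (0.0448) and without parental replicate 3 (0.00605, log2 fold change 0.24).

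Per kilobase of annotated exon, YAP1 was the higher of the pair in every library. YAP1 averaged 35.6 ± 1.82 CPM per kb in the knockout and 30.03 ± 8.58 CPM per kb in the parental libraries (SD, n = 3 each). WWTR1 averaged 12.99 ± 0.243 CPM per kb in the knockout and 10.3 ± 1.05 CPM per kb in the parental libraries. The ratio of YAP1 to WWTR1 per kb was 2.75, 2.84 and 2.65 in the knockout libraries, against 3.20, 3.37 and 2.105 in the parental libraries. The knockout ratios lay between the parental ones. The mean log2 ratio differed by -0.05 (exact two-sided permutation p = 1, where 3 against 3 allows no p below 0.1). Without parental replicate 1 or 2 the sign of this difference turned (0.04 and 0.08), and without parental replicate 3 it was -0.26, so parental replicate 3 decides its size. YAP1 and WWTR1 share 11.2% and 11.7% of their exon bases with antisense genes, AP000942.2 and WWTR1-AS1, and the strand setting of the counting is not given in the sources used here. These antisense genes held at most 4 and 30 reads in any library, against at least 6534 and 2959 reads of YAP1 and WWTR1.

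TEAD1 rose and TEAD4 did not pass. TEAD1 (chromosome 11, 12674591 to 12944483), whose product binds DNA for the coactivators, had 490.3, 503 and 443 CPM in the knockout libraries, against 247, 230.4 and 216 CPM in the parental libraries. Every knockout library was above every parental one, and the log2 fold change was 1.05 (SE 0.11, edgeR adjusted p = 0.00116). It was 0.95 without parental replicate 3, and the call held under all 13 alternatives. TEAD4 (chromosome 12, 2959330 to 3040673), a closely related factor, had 17.4, 17.4 and 16.6 CPM in the knockout libraries, against 11.5, 10.7 and 28.3 CPM in the parental libraries. The knockout libraries lay above parental replicates 1 and 2 and below parental replicate 3. The log2 fold change of TEAD4 was 0.03 (SE 0.39, 95% interval -0.91 to 0.96, edgeR adjusted p = 0.969), 0.58 (adjusted p = 1.52e-05) without parental replicate 3, and as low as -0.22 with another library left out.

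The other TEAD genes, read from a list of coactivators, TEAD and VGLL genes, moved in opposite directions. TEAD2 had 20.6, 19.8 and 20.1 CPM in the knockout libraries, against 4.08, 3.27 and 3.34 CPM in the parental libraries, and rose 5.66-fold (SE of log2 0.14, edgeR adjusted p = 0.00011). TEAD3 had 13.4, 12.5 and 14.6 CPM in the knockout libraries, against 45.6, 47.7 and 27.6 CPM in the parental libraries, and fell by 1.58 (SE 0.23, adjusted p = 0.00384). Both groups of libraries were separate for each gene, and both calls held without parental replicate 3. Summed per kb of exon, the 4 TEAD genes reached 74.6, 75.4 and 69.3 CPM per kb in the knockout libraries, against 49.6, 47.7 and 49.3 CPM per kb in the parental libraries.

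Of that sum, TEAD1 held 70.6% ± 1.498 in the knockout and 51.1% ± 3.39 in the parental libraries (SD, n = 3 each). TEAD2 held 10.3% ± 0.511 of the knockout and 2.71% ± 0.306 of the parental sums, and TEAD3 held 6.09% ± 0.748 of the knockout and 27.1% ± 7.70 of the parental sums. TEAD4 held 12.96%, 12.8% and 13.3% in the knockout libraries, against 12.9%, 12.5% and 31.8% in the parental libraries. The TEAD4 share was thus about the same in 5 libraries and larger in parental replicate 3. The log2 ratio of TEAD4 to TEAD1 counts averaged -4.80 ± 0.0581 in the knockout and -3.93 ± 0.860 in the parental libraries (SD, n = 3 each), a difference of -0.87 with no overlap (exact two-sided permutation p = 0.1, the smallest that 3 against 3 allows). That difference was -0.38 with parental replicate 3 left out. TEAD genes resemble each other in sequence, and reads that aligned to several places were left out of the counts, which can lower each of them by an unknown amount.

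**Figure D2:**
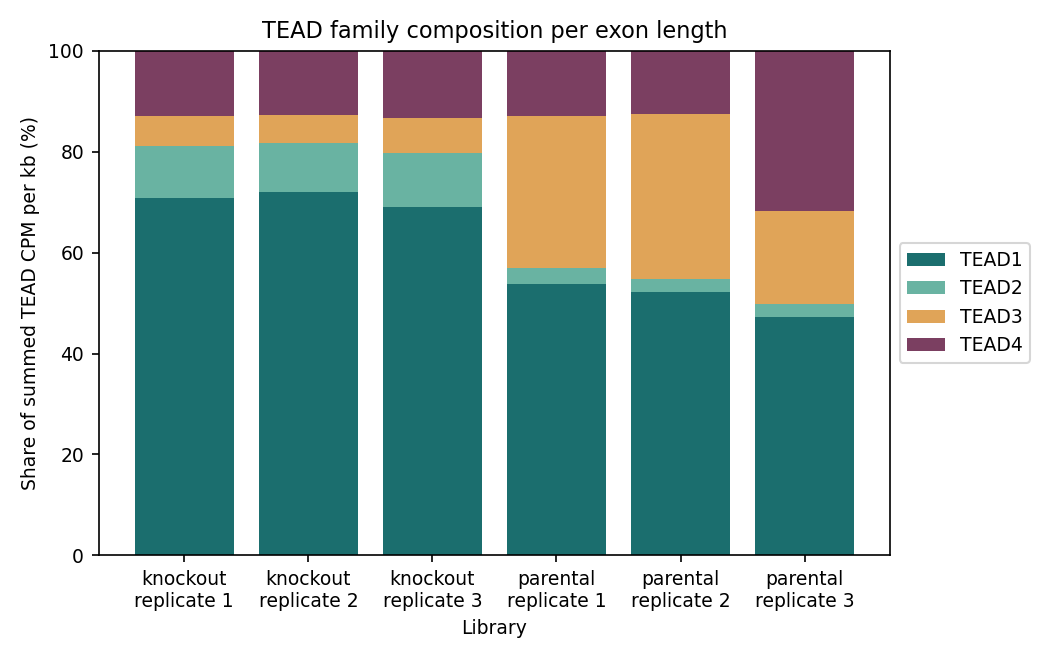
Share of each TEAD gene in the summed TEAD level of each library, in percent of CPM per kb of annotated exon. TEAD1 and TEAD2 take larger shares and TEAD3 a smaller one in the knockout libraries, and TEAD4 takes 31.8% in parental replicate 3 against 12.5% to 13.3% in the other 5 libraries.

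VGLL genes encode cofactors that bind TEAD factors through a vestigial-like domain, and VGLL4 is known to compete with YAP for them. VGLL1 had 0, 0 and 1 reads in the knockout libraries, against 65, 61 and 32 reads in the parental libraries, a ratio of the parental to the knockout level of 156 with a 95% counting interval of 27.5 to 6186 (edgeR adjusted p = 0.00104). VGLL2 had 8, 3 and 5 reads in the knockout libraries, against 23, 21 and 46 reads in the parental libraries (log2 fold change -2.46, edgeR adjusted p = 0.0148). The VGLL2 call was lost without knockout replicate 2 or 3 (0.0666 and 0.0730), and intervals on reads cover counting error only. VGLL3 had 92.2, 101 and 84.4 CPM in the knockout libraries, against 80.7, 77.1 and 47.0 CPM in the parental libraries, and did not pass (0.44, SE 0.22, adjusted p = 0.195; 0.18 and 0.0284 without parental replicate 3). VGLL4 had 60.8, 57.4 and 55.7 CPM in the knockout libraries, against 57.2, 56.5 and 34.9 CPM in the parental libraries, and did not pass (0.23, adjusted p = 0.455; -0.02 without parental replicate 3); it shares 31.6% of its exon bases with ATG7. In this list of 10 genes, 2 passed with a rise, 3 with a fall and 5 not at all, beside 13.3% and 14.3% of all genes tested, with a median of 0.24. With parental replicate 3 left out, 5 rose and 3 fell, beside 30.8% of all genes in each direction.

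Among the target genes, ANKRD1 had the largest fold. ANKRD1 (chromosome 10, 90912096 to 90921276), which encodes a nuclear ankyrin repeat protein, had 873, 874 and 884 reads in the knockout libraries, against 13, 18 and 4 reads in the parental libraries. That is 15.4, 15.9 and 14.6 CPM in the knockout libraries, against 0.228, 0.301 and 0.0703 CPM in the parental libraries, with the lowest parental library near the limit of 3 reads. The gap between the groups was far wider than the spread within either, at 75.5-fold (95% interval 36.1 to 158, log2 fold change 6.24, SE 0.44, edgeR adjusted p = 0.000257). It was 55.4-fold without parental replicate 3, and the call held under all 13 alternatives.

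CCN2 and CCN1 encode secreted matricellular proteins that bind integrins and serve widely as readouts of YAP activity. CCN2 (chromosome 6, 131948176 to 131951373) had 37.4, 40.6 and 38.4 CPM in the knockout libraries, against 10.4, 10.1 and 2.34 CPM in the parental libraries. CCN2 rose 5.08-fold (95% interval 2.07 to 12.5, log2 fold change 2.35, SE 0.54, edgeR adjusted p = 0.0214). That call was lost without any 1 of the knockout libraries (0.0661 to 0.0709), while without parental replicate 3 the rise was 3.65-fold (adjusted p = 1.84e-10). CCN1 (chromosome 1, 85580761 to 85583962) had 68.7, 72.1 and 69.6 CPM in the knockout libraries, against 38.4, 46.4 and 7.62 CPM in the parental libraries. Every knockout library was above every parental one, but parental replicate 3 was 5.57-fold below the mean of the other parental libraries. The change of CCN1 was 1.19 (SE 0.59, 95% interval -0.26 to 2.63) and did not pass (edgeR adjusted p = 0.197); without parental replicate 3 it was 0.68 (adjusted p = 3.16e-05).

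CRIM1 and AMOTL2 both rose. CRIM1 (chromosome 2, 36355926 to 36551135), a membrane protein with cysteine-rich repeats, had 501, 514 and 488 CPM in the knockout libraries, against 197, 186 and 170.2 CPM in the parental libraries. Parental replicate 3 was close to the other parental libraries here, and the rise of 1.44 (SE 0.11, edgeR adjusted p = 0.00028) held under all 13 alternatives. AMOTL2 (chromosome 3, 134355874 to 134375479), an angiomotin-like scaffold that binds YAP and restrains it, had 222, 231 and 232 CPM in the knockout libraries, against 105, 109 and 35.6 CPM in the parental libraries. AMOTL2 rose by 1.45 (SE 0.41, edgeR adjusted p = 0.0432). The AMOTL2 call was lost with RLE factors (0.0516) and with no low-count filter (0.0694), and without any 1 library other than parental replicate 3 (0.0574 to 0.120). Its change was 1.04 without parental replicate 3 (adjusted p = 2.09e-09).

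AJUBA was the only 1 of the 10 with a negative log2 fold change. AJUBA (chromosome 14, 22971174 to 22982642) encodes a LIM protein that binds LATS kinases and limits their activity. It had 68.4, 72.9 and 73.4 CPM in the knockout libraries, against 165, 174 and 42.2 CPM in the parental libraries. The knockout libraries lay below parental replicates 1 and 2 and above parental replicate 3, and the change of -0.83 did not pass (SE 0.49, 95% interval -2.03 to 0.37, edgeR adjusted p = 0.271). It was -1.29 without parental replicate 3 (adjusted p = 5.75e-10). The related LIM protein genes LIMD1 and WTIP rose. LIMD1 had 169.6, 170.5 and 174 CPM in the knockout libraries, against 101, 100.2 and 94.8 CPM in the parental libraries (0.79, adjusted p = 0.00133), and WTIP had 18.5, 19.3 and 21.96 CPM in the knockout libraries, against 2.61, 2.78 and 0.668 CPM in the parental libraries (3.30, adjusted p = 0.00542).

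**Figure D3:**
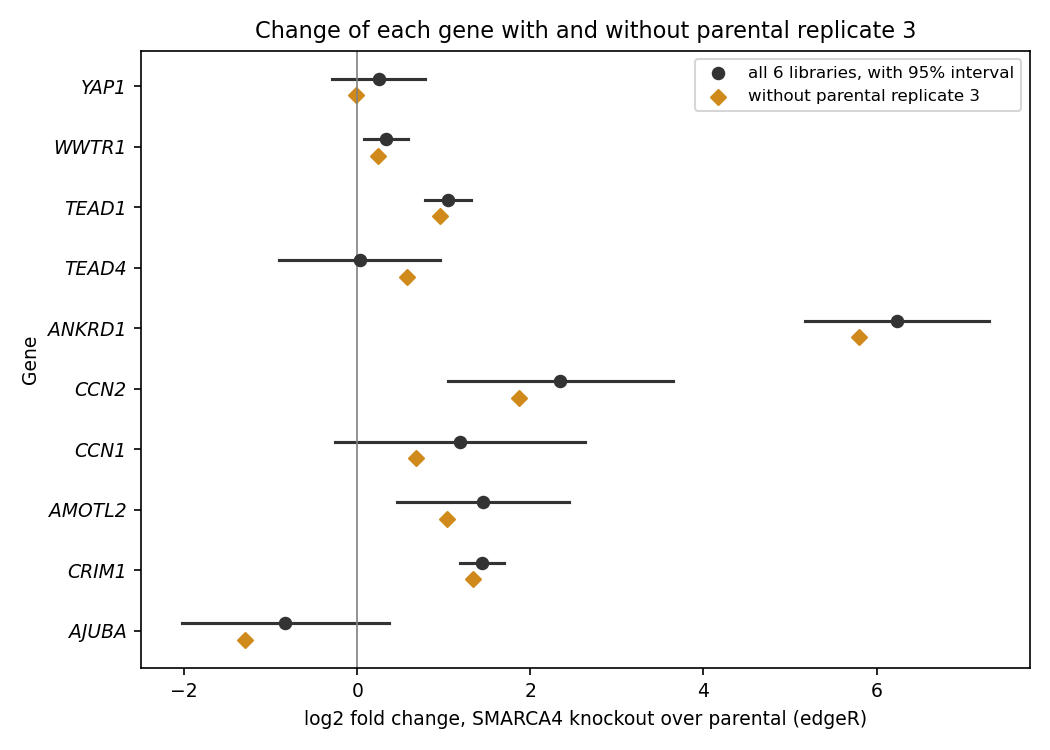
Log2 fold change of the knockout over the parental libraries for each of the 10 genes by edgeR, with all 6 libraries (black, with 95% interval) and without parental replicate 3 (orange). The intervals of TEAD1, CRIM1 and ANKRD1 lie well above 0, those of YAP1, TEAD4, CCN1 and AJUBA include it, and the values without parental replicate 3 are lower for all but TEAD4.

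A wider list of 22 YAP and TAZ target genes known from cancer cells, which includes 5 of the 10 genes above, was read from the same fit. All 22 were in the count files and 21 were tested; FOXF2, which had 2, 1 and 2 reads in knockout and no reads in parental libraries, was not. Of the 21, 8 rose, 3 fell and 10 did not pass, beside 13.3% of all genes that rose and 14.3% that fell, and the median log2 fold change was 0.54, beside 0.02 over all genes. The 8 include ANKRD1, CCN2, AMOTL2 and CRIM1, already counted among the 10 genes. Without parental replicate 3, 14 rose, 6 fell and 1 did not pass, with a median of 0.28, where 30.8% of all genes were called in each direction. Without any 1 of the knockout libraries, 4 rose and 1 fell, beside 1221 to 1298 risers and 1471 to 1500 fallers of 18313 to 18442 genes tested.

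TGFB2, a secreted growth factor gene, had 26.8, 29.6 and 26.2 CPM in the knockout libraries, against 3.78, 3.30 and 2.88 CPM in the parental libraries, and rose by 3.05 (SE 0.15, edgeR adjusted p = 7.5e-05); 27.1% of its exon bases are shared with TGFB2-OT1. RBMS3, an RNA-binding protein gene, had 3.09, 3.88 and 3.74 CPM in the knockout libraries, against 1.66, 1.67 and 1.53 CPM in the parental libraries (1.14, adjusted p = 0.00429). The risers also held the receptor kinase gene AXL (2.78, adjusted p = 0.0201) and the kinase gene NUAK2 (1.06, adjusted p = 0.0484), named after their values were seen. The AXL call was lost without any 1 of the knockout libraries (0.0625 to 0.0685), and that of NUAK2 without any 1 library other than parental replicate 3 (0.0609 to 0.139) and with RLE factors, upper-quartile factors or either other filter (0.0520 to 0.0615). With parental replicate 3 left out, AXL rose by 2.26 and NUAK2 by 0.72. The other called targets fell. F3, which encodes tissue factor, the initiator of blood clotting, fell to 83.5, 88.2 and 94.2 CPM in the knockout libraries, against 1084, 1126 and 467 CPM in the parental libraries (-3.33, SE 0.36, adjusted p = 0.00129; -3.69 without parental replicate 3). CCDC80, a secreted matrix protein gene, fell by 0.82 (adjusted p = 0.0108; at most 0.0591 without any 1 of the knockout libraries, where the call was lost). FJX1, named after its values were seen, fell by 0.58 (adjusted p = 0.0312; 0.0689 to 0.136 without any 1 library other than parental replicate 3, where the call was lost, and -0.72 without parental replicate 3). The 2 with the highest levels among those that did not pass were MYOF, a membrane repair protein gene, at 0.40 (adjusted p = 0.169; 0.18 and 0.00359 without parental replicate 3), and NT5E, which encodes the ecto-nucleotidase CD73, at 0.15 (adjusted p = 0.751). NT5E turned to -0.19 and passed without parental replicate 3 (adjusted p = 0.00275).

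The target list also separated parental replicate 3 from the other parental libraries. All 21 tested targets were lower in parental replicate 3 than in both other parental libraries, beside 45.4% of all genes tested. The log2 difference from the mean of parental replicates 1 and 2 ran from -0.13 to -2.53 with a median of -0.92, and 10 of the 21 were more than 2-fold lower. Of the 10 YAP, TEAD and target genes, 9 were lower in parental replicate 3. Against the same mean, CCN1 was 5.57-fold, CCN2 4.39-fold, AJUBA 4.02-fold, ANKRD1 3.76-fold, AMOTL2 3.01-fold and YAP1 1.71-fold lower. The drop was small for CRIM1 (1.12-fold), TEAD1 (1.10-fold) and WWTR1 (1.10-fold). WWTR1 was nearly tied with parental replicate 2 (52.0 against 52.2 CPM). TEAD4 was 2.54-fold higher in parental replicate 3. In the same library 13 of 15 genes of the kinase cascade and 14 of 19 tested scaffold genes were lower too. Some of these were already counted above: LATS2 and PTPN14 as targets, AJUBA among the 10 genes and AMOTL2 in both. This is a description of a single library, with no test, and the labels give only its title number 6 as a difference.

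**Figure D4:**
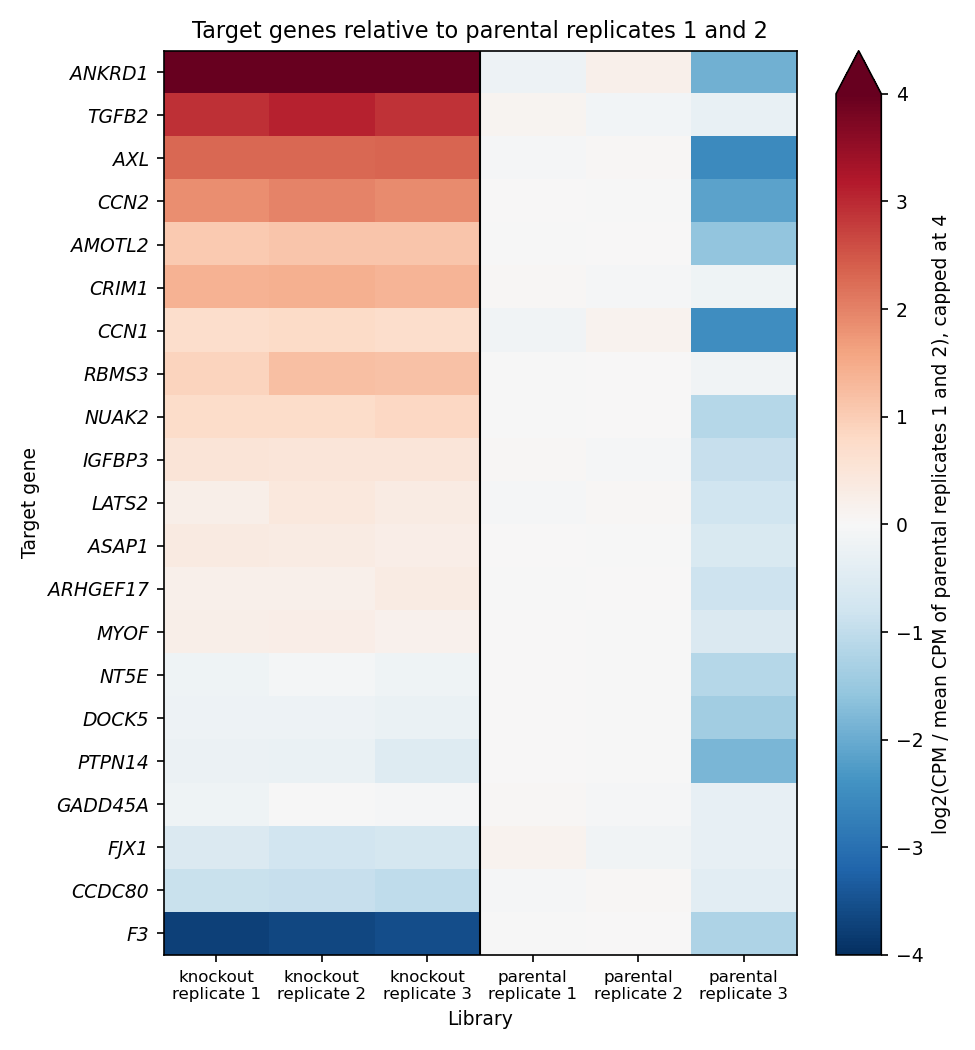
The 21 tested target genes by library, as log2 of the CPM over the mean CPM of parental replicates 1 and 2, capped at 4 (ANKRD1 in the knockout exceeds it). Parental replicate 3 is below 0 for all 21, and all 3 knockout libraries are above 0 for 14 genes and below 0 for the other 7, which are F3, CCDC80, FJX1, NT5E, DOCK5, PTPN14 and GADD45A.

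Of 15 genes of the kinase cascade, none rose, 2 fell and 13 did not pass by edgeR's quasi-likelihood test, with a median of -0.03; 2 of 15 is near the 14.3% of all genes tested that fell. TAOK3, a kinase that activates MST kinases, had 35.9, 35.6 and 32.9 CPM in the knockout libraries, against 77.5, 73.6 and 65.6 CPM in the parental libraries (-1.05, SE 0.11, adjusted p = 0.000875). MAP4K3, a kinase that acts beside MST, fell by 0.48 (adjusted p = 0.013), a call lost without any 1 of the knockout libraries (at most 0.0750) or parental replicate 1 (0.0518). The core kinase genes, named outside the rule for this list, did not pass with all 6 libraries and passed without parental replicate 3. STK3 and STK4, which encode the MST kinases, changed by -0.13 (95% interval -0.42 to 0.15) and -0.01 (-0.27 to 0.25), and LATS1 and LATS2 by -0.03 (-0.45 to 0.39) and 0.54 (-0.01 to 1.09). With parental replicate 3 left out the changes were -0.25 for STK3, -0.14 for STK4, -0.24 for LATS1 and 0.28 for LATS2 (edgeR adjusted p = 0.00405, 0.0149, 0.0017 and 0.00204). MAP4K4 (-0.53, adjusted p = 0.0858) and TAOK1 (0.27, adjusted p = 0.399) had the highest levels among those that did not pass; without parental replicate 3 MAP4K4 passed (-0.75, adjusted p = 2.41e-08) and TAOK1 was at 0.03 (0.802). With parental replicate 3 left out, where 61.6% of all genes were called, 2 of the 15 rose and 10 fell.

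Of 20 scaffolds and upstream regulators, 19 were tested, of which 5 rose, 4 fell and 10 did not pass, beside 13.3% of all genes that rose and 14.3% that fell, with a median of 0.11. Besides LIMD1, WTIP and AMOTL2, WWC2, a scaffold that promotes LATS activity, rose by 0.66 (SE 0.09, edgeR adjusted p = 0.00253; 28.7% of its exon bases are shared with CLDN22), and RASSF1, named after its values were seen, by 0.47 (adjusted p = 0.0347). The RASSF1 call was lost without any 1 of the knockout libraries or parental replicate 1 (0.101 to 0.125), with RLE factors (0.0539) and with no low-count filter (0.141). The 4 that fell were CRB3, DLG5, LLGL1 and SCRIB, whose products are known from cell polarity. CRB3, an apical membrane protein gene, had 2.86, 2.96 and 2.30 CPM in the knockout libraries, against 22.6, 27.3 and 19.3 CPM in the parental libraries (-3.09, adjusted p = 0.000176). DLG5, a membrane scaffold, had 128, 131 and 128 CPM in the knockout libraries, against 327, 312 and 252 CPM in the parental libraries (-1.20, adjusted p = 0.00117). LLGL1 fell by 0.36 (adjusted p = 0.0237, at most 0.133 without any 1 library other than parental replicate 3, where the call was lost), and SCRIB, named after its values were seen, fell by 0.40 (adjusted p = 0.0336; 0.0626 to 0.165 without any 1 library other than parental replicate 3, where the call was lost). FAT1, an atypical cadherin (0.45, adjusted p = 0.518), and AMOTL1 (-0.55, adjusted p = 0.1097) did not pass; without parental replicate 3 FAT1 was at 0.01 (0.959) and AMOTL1 passed (-0.81, 2.83e-08). AMOT, not tested with all 6 libraries, had 0, 1 and 0 reads in the knockout libraries, against 11, 13 and 10 reads in the parental libraries. That is a ratio of the parental to the knockout level of 33.5 (95% counting interval 5.62 to 1361). Without parental replicate 3 AMOT was tested and fell (log2 fold change -4.74, edgeR adjusted p = 0.000372). Left without parental replicate 3, the list had 8 risers and 10 fallers of 20 tested, beside 30.8% of all genes in each direction. Left without parental replicate 1 it had 3 risers and 2 fallers, beside 1642 risers and 1952 fallers of 18303 genes tested.

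For 3 target genes, the genes with the most similar pattern were named by the smallest root mean square difference of centred log2 CPM over the 6 libraries, among 10981 other genes with a mean of at least 5 CPM. For ANKRD1 these were ANTXR1 (0.19), PNMA2 (0.21) and LIX1L (0.36). ANTXR1 had 782, 808 and 748 CPM in the knockout libraries, against 12.98, 11.9 and 4.41 CPM in the parental libraries. For CCN2 they were MYL9 (0.11), CAVIN1 (0.12) and LINC00842 (0.13), of which CAVIN1 had 508, 499 and 497 CPM in the knockout libraries, against 121, 121 and 25.1 CPM in the parental libraries. For CCN1 they were EHD2 (0.07), WFDC21P (0.08) and PXDC1 (0.08), of which EHD2 had 61.3, 61.1 and 62.6 CPM in the knockout libraries, against 36.4, 37.6 and 6.70 CPM in the parental libraries. Parental replicate 3 was the lowest library for each of these 9, which their choice by likeness over the same 6 libraries fixes.

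Marker genes of several cell types were read beside these results. The summed level of 6 markers of carcinoma epithelium was 3157 to 3422 CPM in knockout libraries, against 6931 to 7700 CPM in parental ones. Of the 6, 5 fell, beside 14.3% of all genes tested. Their sizes differed widely, with log2 fold changes from -0.42 for KRT18, which did not pass, to -5.40 for KRT19 and -5.94 for CDH1. Without parental replicate 3 KRT18 passed too (-0.31, edgeR adjusted p = 6.21e-05). CCN2, CCN1 and ANKRD1 are also expressed by fibroblasts and muscle cells. The summed level of 6 fibroblast markers was 53.4 to 58.1 CPM in knockout libraries, against 39.3 to 110.1 CPM in parental ones. The highest sum was in parental replicate 3, where COL1A1 alone held 109 CPM. Of these 6, 3 were tested, of which LUM and COL3A1 rose and COL1A1 fell, while DCN stood at no more than 0.230 CPM and PDGFRB at no more than 0.141 CPM in any library. The 4 smooth muscle markers summed to 10.02 to 11.1 CPM in knockout libraries, against 7.52 to 11.7 CPM in parental ones. Of 2 tested DES rose, with 25, 26 and 31 reads in the knockout libraries, against 0, 2 and 9 in the parental ones. ACTA2 did not pass (0.13, edgeR adjusted p = 0.661), but passed without parental replicate 3 (0.28, adjusted p = 0.0172). The 4 endothelial markers summed to 0.907 to 1.40 CPM in knockout libraries, against 0.510 to 0.560 CPM in parental ones. Of 2 tested CDH5 rose, with 35, 27 and 39 reads in the knockout libraries, against 4, 10 and 1 in the parental ones. The 4 blood markers reached at most 0.315 CPM in knockout libraries, against 0.651 CPM in parental ones, with PTPRC at 0 reads in all 6 libraries. Of 2 tested CD79A fell, with 3, 2 and 5 reads in the knockout libraries, against 22, 16 and 21 in the parental ones. The part of epithelial and fibroblast markers in the results above was not tested.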

How the data were processed

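Each library has a deposited file of raw counts of reads by gene symbol. The submitters' processing notes name TopHat2 2.1.1 and HTSeq 0.11.0 with hg38; neither annotation release nor strand setting is given in the sources used here. Unassigned reads (5 classes, 13.8% to 15.3% of each file) entered neither library sizes nor tests.

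Counts were filtered with filterByExpr, scaled by TMM and tested over all 17809 remaining genes with edgeR 4.0.16 (robust quasi-likelihood test, two-sided, R 4.3.3), with no covariate and Benjamini-Hochberg adjustment at 0.05. SEs and 95% intervals derive from the quasi-likelihood F value. The same code was tested on simulated data. Positions and exon lengths are from GENCODE 29 (GRCh38), CCN1 and CCN2 under their older symbols; upstream sequences are from RefSeq (GRCh38.p14). Ratios were compared by exact permutation. Alternatives were RLE and upper-quartile factors, 2 filters, DESeq2 1.42.0, limma-voom (limma 3.58.1), a replicate block and each library left out.

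The genes and lists were chosen with earlier results of these data known. By rule, the text names the 10 genes, the whole TEAD and VGLL list and, of the other lists, up to 6 passing genes with the smallest adjusted p and 2 others with the highest level. The main test did not pair the libraries by replicate number, which is not stated to mark a shared culture or day.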

Additional observations from a re-analysis of the deposited data

How the results depend on the processing

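Over 13 alternatives, direction and call were kept throughout for YAP1, TEAD1, ANKRD1 and CRIM1 among the 10 genes, apart from the sign of YAP1, which did not pass, without parental replicate 3 (-0.01). The calls of CCN2 and AMOTL2 and the missing calls of WWTR1, TEAD4, CCN1 and AJUBA depended on the settings given beside them; the cause was not tested. With each library left out in turn, the genes changed ranged from 2692 to 11325 of those tested (4912 with all libraries), the 10 genes changed from 3 to 9 (5), the targets from 5 to 20 (11), the TEAD and VGLL list from 4 to 8 (5), the kinase cascade from 1 to 12 (2) and the scaffolds from 5 to 18 (9), with every highest count reached without parental replicate 3. The log2 fold change of NT5E ranged from -0.19 to 0.33 and the difference in the log2 ratio of YAP1 to WWTR1 from -0.26 to 0.08 (0.0796 without parental replicate 2). With the replicate number as a block, 3040 genes changed, with 1 of the kinase cascade and 5 of the scaffolds; AMOTL2 (adjusted p = 0.0642), MAP4K3 (0.0641), LLGL1 (0.107), NUAK2 (0.0821), FJX1 (0.0672), RASSF1 (0.119) and SCRIB (0.0973) were lost among the named genes. The ratio of TEAD4 to TEAD1 gave p = 0.25 by exact permutation of the signs of the 3 paired differences, the smallest they allow. Same-numbered libraries did not deviate together (correlations -0.0487, -4.24e-05 and -0.0743), and no knockout library correlated best with its own number. Deviations were taken from each group mean, and parental replicate 3 lay far from the other parental libraries. These correlations therefore cannot decide whether same-numbered libraries share a culture or day. Rising and falling genes were 2138 and 2792 with RLE factors, and 1871 and 2833 when no genes were filtered out. LLGL1 also lost its call with no filter (0.0521), and MAP4K4 gained one with DESeq2 (0.036) and without parental replicate 3. VGLL1 and VGLL2 had 12 alternatives. Those of AXL, NUAK2, FJX1, RASSF1, SCRIB, STK3, STK4, LATS1 and LATS2 were added after seeing the data. Depth limits ANKRD1 in the parental libraries, VGLL1, VGLL2, AMOT and FOXF2.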
